A study of Saccharomyces cerevisiae with 8 samples.

Results

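The genes described here code for the proteins of the small subunit of the cytosolic ribosome of Saccharomyces cerevisiae. They were taken by name from the array annotation, as every symbol made of RPS and a number with or without the letter A or B. This gave 53 of the 5100 mutants named on the array. A measured value on at least 1 array was found for 46 of them, among 4749 mutants with a value in all. The 7 without a value were RPS3, RPS13, RPS16B, RPS20, RPS22A, RPS25B and RPS31. The yeast annotation lists 56 RPS genes, as 24 paralogue pairs and 8 single-copy genes, and all 53 names were found in it. Among those with no named probe were RPS8B and RPS26A.

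The small subunit binds the messenger RNA and pairs its codons with tRNAs, while the large subunit joins the amino acids. Yeast kept many ribosomal protein genes as pairs after a duplication of its genome, and both members of a pair code for the same or nearly the same protein. A haploid cell that loses 1 member can therefore still make the protein from the other, often at a reduced level, whereas a single-copy gene that the cell needs can only be weakened. Deletion of a ribosomal protein gene commonly slows growth.

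In the screen, a pool of barcoded haploid mutants derived from BY4741 was grown in synthetic complete medium with or without selenomethionine (SeMet), a methionine analogue in which selenium stands in place of sulfur and which is toxic to yeast. The pool combined the deletion collection with DAmP mutants, in which a gene is kept but its mRNA is made less stable. The culture with 20 µM SeMet was hybridised against the untreated culture on 3 arrays, and that with 12 µM SeMet on 2. The growth arrays, 3 in number, hold the untreated culture after growth, labelled as 16 h, against the pool at the start (t = 0). In every case the grown or treated pool carried Cy3 and the reference Cy5, without a swap, so that an effect of dye on a probe cannot be told apart from an effect of SeMet or of growth. The paper names BY4741 as a strain with a mutation in MET17, a gene of sulfur assimilation, and this mutation was shared by all groups. Neither the names of the probes nor the labels separate deletion from DAmP mutants, and each gene is represented by the mutant or mutants that its probes read.

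A relative fitness score is the log2 ratio of a mutant in the treated over the untreated culture, averaged over the probes of the gene on that array. A growth score is the log2 ratio of untreated over t = 0. All scores are thus relative to the rest of the pool: a score above 0 means that the mutant held a larger share with SeMet than without it, and a growth score below 0 means that its share fell during growth. Since a barcode and not the gene is hybridised, the near identity of paralogues does not mix their signals. Means are given ± SD over arrays, with n = 3 at 20 µM and in growth and n = 2 at 12 µM unless another n is stated. The mean of each group was set against 0 in a limma fit of all 8 arrays and all mutants with at least 2 values, and mutants with an adjusted p under 0.05 were called higher or lower.

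Mutants of the small subunit stood mostly above 0 on each SeMet array and below 0 on each growth array. At 20 µM their median was 1.23, 1.22 and 2.72 in experiments 1, 2 and 3, with 37 of 42, 39 of 45 and 37 of 45 mutants above 0. The medians over all mutants were −0.04, −0.06 and −0.15 on the same arrays. At 12 µM the median of the RPS mutants was 0.62 and 0.58, with 29 of 35 and 33 of 41 above 0. In growth it was −1.17, −0.80 and −0.82, with 9 of 45, 9 of 43 and 6 of 33 above 0. Experiment 3 at 20 µM stood apart from the other 2, and it was also the array with the widest spread over all mutants (SD 1.11 against 0.80 and 0.78). It gave the highest value of the 3 for 30 of the 42 RPS mutants measured in all 3 experiments.

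**Figure D1:**
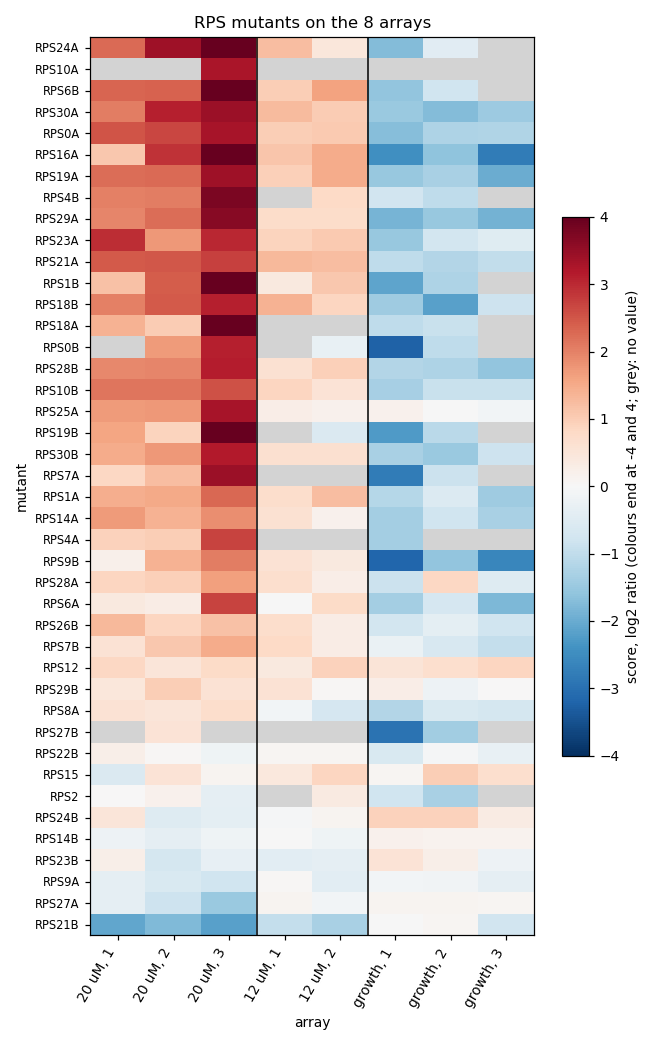
Scores of 42 RPS mutants with a value (rows, ordered by the mean at 20 µM) on the 8 arrays (columns), as log2 ratios in colour, with grey for a missing value. Most rows are red on the SeMet arrays and blue on the growth arrays, and experiment 3 at 20 µM holds the deepest red.

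At 20 µM, 44 RPS mutants had at least 2 values. Their scores ran from −2.01 to 3.56 with a median of 1.80, against −0.09 over all 4536 mutants scored. Of the 44, 32 (72.7%) were called higher, 3 were called lower and 9 were not called, where 12.5% of all mutants were called higher and 13.8% lower. At an unadjusted p under 0.05 there were 39 of the 44, compared with 38.9% of all mutants. Above the limit of 1.5 that the study used for resistance were 27 of them, compared with 5.34% of all mutants, and 1 was below −1.5, compared with 3.06%. Without experiment 3, 19 of 42 were above 1.5 (181 of 4454 over all mutants) and the median was 1.22. All 3 experiments were above 0 for 33 of the 42 complete mutants and below 0 for 4. Agreement in sign was not counted over all mutants, so these counts have no share to be read against. The pattern was shared with the large subunit (RPL and RPP names), of which 45 of 63 scored mutants were called higher and 2 lower, with a median of 2.38. A difference between the subunits was not tested.

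**Figure D2:**
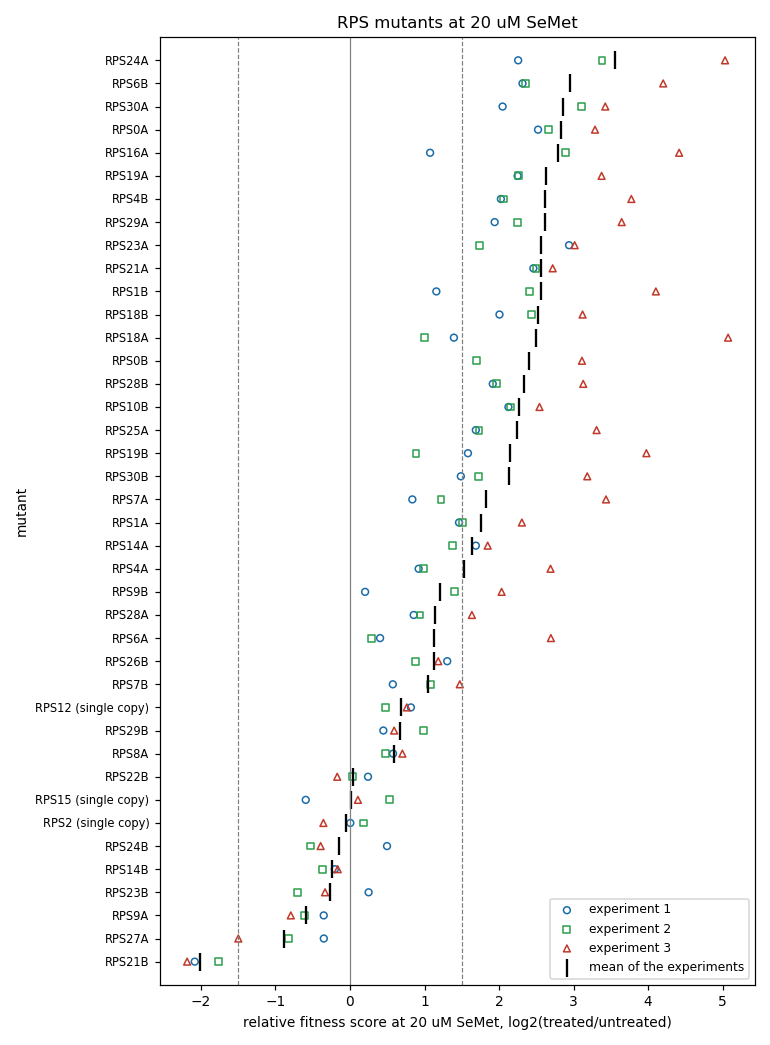
Relative fitness score at 20 µM SeMet (x axis, log2 of treated over untreated) of 40 RPS mutants with at least 2 values (y axis), with a symbol for each experiment, a bar at the mean and dashed lines at the limits of −1.5 and 1.5. RPS24A is at the top with a mean of 3.56 and RPS21B at the bottom with −2.01, and the single-copy genes RPS2, RPS12 and RPS15 lie in the lower part.

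The highest mean belonged to RPS24A (YER074W), whose product acts early in the maturation of the small subunit rRNA. It scored 2.26, 3.38 and 5.03 in experiments 1 to 3, all above any value of its paralogue RPS24B. The mean was 3.56 ± 1.40 (adjusted p = 0.0025, limma). RPS6B (YBR181C), of which the protein is phosphorylated in response to nutrients, scored 2.32, 2.36 and 4.20 and its mean was 2.96 ± 1.08 (adjusted p = 0.0017). Experiments 1 and 2 lay close to each other and experiment 3 well above them.

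RPS30A (YLR287C-A) scored 2.05, 3.11 and 3.43, with a mean of 2.86 ± 0.72 (adjusted p = 0.00018). RPS0A (YGR214W), whose product is needed for the last cleavage of the small subunit rRNA, scored 2.52, 2.67 and 3.29, and the mean was 2.83 ± 0.41 (adjusted p = 7.7e-05). The averaged scores of RPS0A thus had little spread, but they came from 1 probe in experiments 1 and 2. In experiment 3 a further probe gave 2.901, beside 3.675 from the first. RPS16A (YMR143W) in contrast scored 1.08, 2.89 and 4.42 from 1 probe. Rps16 reaches from the head towards the tRNA in the ribosomal P site, and its mutant had a mean of 2.79 ± 1.67 (adjusted p = 0.0061). RPS19A (YOL121C), the yeast counterpart of a gene mutated in human Diamond-Blackfan anaemia, scored 2.25, 2.26 and 3.38, with a mean of 2.63 ± 0.65 (adjusted p = 0.00028). The most even of the strong scores was that of RPS21A (YKR057W), with 2.46, 2.5 and 2.72 (2.56 ± 0.14, adjusted p = 3e-05), from 1 probe.

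Not every RPS mutant behaved in this way. RPS21B (YJL136C) codes for the other copy of Rps21, a protein that binds next to Rps0, and scored −2.08, −1.76 and −2.19 at 20 µM. All 3 values were below any other RPS value on the same array. The mean of −2.01 ± 0.22 (adjusted p = 0.00025, limma) was the lowest of the RPS mutants and the only one below −1.5. Among the mutants of nearby genes, GLG2 and LCB3 had means of −0.24 and 0.07, with adjusted p of 0.18 and 0.72. RPS27A (YKL156W), for a zinc-binding protein of the body, scored −0.35, −0.83 and −1.5, with a mean of −0.89 ± 0.58 (adjusted p = 0.011). All 3 experiments were below 0, and experiment 3 was again the farthest from 0. The mutant of its neighbour RSM22 was also lower, with a mean of −1.40 (adjusted p = 0.017), and whether the results are linked was not tested. RPS9A (YPL081W) scored −0.35, −0.61 and −0.79, with a mean of −0.59 ± 0.22 (adjusted p = 0.015), from 1 probe. With the arrays of 20 µM alone in the fit, the calls of RPS27A and RPS9A were lost (adjusted p = 0.07 and 0.054), and that of RPS9A also without experiment 2 or 3 (adjusted p = 0.06 and 0.089).

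A further group of mutants lay near 0. RPS23B, RPS14B and RPS24B had means of −0.26 ± 0.48, −0.25 ± 0.11 and −0.14 ± 0.56 at 20 µM, and none was called (adjusted p = 0.36, 0.11 and 0.66, limma). Each is the low-scoring partner of a paralogue that was called higher. Of the mutants not described singly here, RPS22B had a mean of 0.04 and RPS4B one of 2.62. RPS10A had a value only in experiment 3 (3.27) and RPS27B only in experiment 2 (0.54), so neither was scored.

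Single-copy genes had few values. Only RPS2, RPS12 and RPS15 were measured, of 7 single-copy genes named on the array, so a comparison with the paired genes rests on 3 mutants and was not tested. Their median at 20 µM was 0.02, and that of the 41 scored members of pairs was 2.13, of which 31 were called higher and 3 lower. According to the paper, the DAmP mutants were of essential genes and the deletion mutants of non-essential ones. Single-copy and paired genes may thus differ in the kind of mutant, which cannot be told apart from copy number here. RPS2 (YGL123W), for a protein that contributes to the accuracy of decoding, scored 0.00, 0.19 and −0.36, with a mean of −0.06 ± 0.28 (adjusted p = 0.83, limma). Its growth score was −0.79 and −1.31 on the 2 arrays with a value, with a mean of −1.05 ± 0.37 (n = 2, adjusted p = 0.015). RPS2 thus lost share during growth without a shift at 20 µM larger than its spread, and the sign of its 20 µM mean changed when the arrays were centred (0.03). Its 2 probes gave 0.41 and −1.13 in experiment 3 of 20 µM, and the second had no value in experiments 1 and 2. In growth experiment 1 they gave −1.22 and −0.36. The spread of RPS2 is thus not only one between experiments.

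RPS15 (YOL040C), for a protein of the head that is required for export of the subunit from the nucleus, scored −0.59, 0.53 and 0.11, with a mean of 0.02 ± 0.57 (adjusted p = 0.97). The experiments differed in sign. RPS12 (YOR369C), for a protein of the beak of the head, was the single-copy mutant with a call at 20 µM. Its 20 µM scores were 0.82, 0.48 and 0.76, followed by 0.41 and 0.93 with 12 µM and 0.52, 0.68 and 0.86 in growth, so all 8 arrays were above 0. Its means were 0.69 ± 0.18 at 20 µM (adjusted p = 0.0085), 0.67 ± 0.37 at 12 µM (adjusted p = 0.14) and 0.69 ± 0.17 in growth (adjusted p = 0.011, or 0.054 and 0.052 without growth experiment 2 or 3). Since the measured pool carries the same dye on all 8 arrays, a dye effect of the RPS12 probes cannot be told apart from these scores.

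The paralogue pairs offered a comparison within each array, between mutants of the same protein. The difference A minus B was taken on each array and tested with limma over all pairs of symbols of this form. At 20 µM, 17 RPS pairs could be tested and 11 (64.7%) differed, 6 with A higher and 5 with B higher. Of all 39 pairs tested, most of which are ribosomal, 59% differed, and of the 20 RPL and RPP pairs 11 did. The median size of the difference was 1.23 in RPS pairs and 1.26 in those of the large subunit. Without experiment 1, 2 or 3, 9 of 17, 7 of 15 and 9 of 15 RPS pairs differed. Over all pairs these were 21 of 39, 17 of 36 and 20 of 36.

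**Figure D3:**
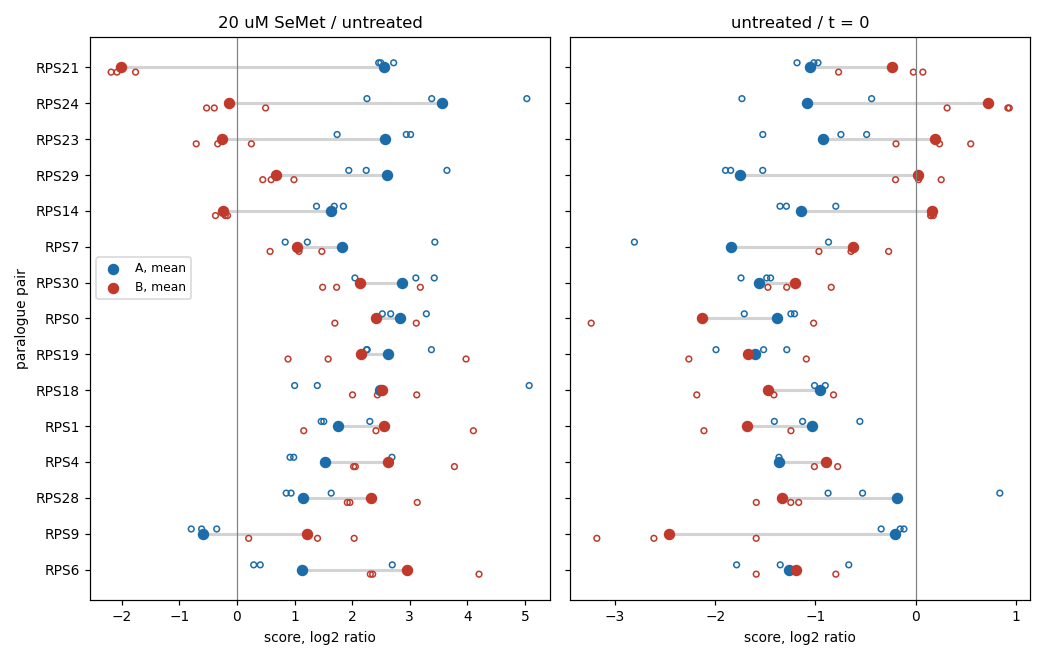
Scores (x axis, log2 ratio) of the A (blue) and B (red) mutants of 15 RPS pairs tested at 20 µM (y axis), at 20 µM on the left and in growth on the right. Open circles are arrays, filled circles are means over the arrays with a value, and grey lines join the means. The pairs RPS21, RPS24, RPS23, RPS29 and RPS14 at the top have A to the right at 20 µM and to the left in growth.

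Rps21 had the widest gap. RPS21A exceeded RPS21B by 4.54, 4.26 and 4.91 on the log2 scale in experiments 1 to 3 of 20 µM, a mean difference of 4.57 ± 0.25 (SE, adjusted p = 2.4e-05, limma). At 12 µM the mutants also lay on opposite sides of 0, with 1.29 and 1.24 for RPS21A and −0.95 and −1.29 for RPS21B. The difference there was 2.39 ± 0.31 (SE, adjusted p = 0.0043), the only RPS pair of 10 tested that differed at 12 µM, where 3.33% of 30 pairs did. No RPS pair differed at 12 µM when either array of 12 µM was left out, and when the fit was limited to these arrays 5 of 10 did, as did 11 of all 30 pairs. From 12 to 20 µM the gap widened by 2.18 ± 0.40 (SE, adjusted p = 0.014), and that of RPS14 by 1.40 ± 0.30 (SE, adjusted p = 0.018). These were the 2 RPS pairs of 10 whose difference changed between the doses, where 16.7% of 30 pairs did, and neither was called with only the SeMet arrays in the fit or with 1 array of 12 µM left out. In growth RPS21A scored −1.02, −1.18 and −0.98 and RPS21B −0.02, 0.07 and −0.77. Their growth values did not overlap, but the difference of −0.82 ± 0.25 (SE) missed the threshold (adjusted p = 0.052).

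RPS24A exceeded RPS24B by 1.76, 3.91 and 5.43 at 20 µM, with a mean difference of 3.70 ± 0.71 (SE, adjusted p = 0.0067). RPS24B itself scored 0.50, −0.53 and −0.39. The size of this gap varied between experiments, but its sign did not. The pair RPS23 codes for a protein of the decoding centre that influences the accuracy of translation. RPS23A (YGR118W) scored 2.94, 1.74 and 3.01 and RPS23B (YPR132W) 0.25, −0.71 and −0.33, each from 1 probe. Their difference was 2.83 ± 0.35 (SE, adjusted p = 0.00062), and the values of the mutants did not overlap.

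RPS29A (YLR388W) and RPS29B (YDL061C) code for a small zinc-binding protein of the head. The A mutant scored 1.94, 2.24 and 3.65 and the B mutant 0.45, 0.99 and 0.59, so that both were called higher (adjusted p = 0.00048 and 0.016, limma) at different levels. The call of RPS29B was lost without experiment 2 or 3 (adjusted p = 0.084 and 0.053). Their difference was 1.93 ± 0.37 (SE, adjusted p = 0.0052). RPS14A (YCR031C) scored 1.69, 1.38 and 1.85 and RPS14B (YJL191W) −0.20, −0.37 and −0.16. Rps14, a protein of the platform, is known to repress the RPS14B copy when in excess. The RPS14 difference was nearly the same on each array (1.89, 1.75 and 2.01), with a mean of 1.89 ± 0.19 (SE, adjusted p = 0.00027).

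In the other direction, RPS6B exceeded RPS6A, which scored 0.40, 0.29 and 2.70. The values of these mutants overlapped across experiments, because both were raised in experiment 3, yet the difference A minus B was −1.91, −2.07 and −1.51 within arrays. Its mean was −1.83 ± 0.19 (SE, adjusted p = 0.00062). RPS9B (YBR189W) scored 0.20, 1.40 and 2.03 against the negative scores of RPS9A, a mean difference of −1.80 ± 0.47 (SE, adjusted p = 0.015). Like Rps2, Rps9 is a protein at which mutations alter decoding accuracy. The pairs RPS28 and RPS4 also had B higher, by differences A minus B of −1.19 and −1.09.

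Other pairs scored alike in direction. RPS18A and RPS18B, for a protein of the head, differed by −0.03 on average, with a 95% interval of −1.88 to 1.82. RPS18B (YML026C) scored 2.01, 2.44 and 3.12 (2.52 ± 0.56, adjusted p = 0.00055, limma). RPS18A (YDR450W) scored 1.39, 1.00 and 5.07, so that its mean of 2.49 ± 2.25 was not called (adjusted p = 0.062), and without experiment 3 it was called with a mean of 1.20 (adjusted p = 0.0085). It was also called with arrays scaled to a common spread (2.36, adjusted p = 0.027). Its 2 probes in experiment 3 gave 5.92 and 4.23, both far above the other experiments. RPS19B (YNL302C) scored 1.58, 0.89 and 3.98 (2.15 ± 1.62, adjusted p = 0.044), and its call was lost without experiment 1 or 3 (adjusted p = 0.086 and 0.072). It differed from RPS19A by 0.48 in favour of A, with an interval of −0.70 to 1.66.

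RPS0B (YLR048W), with values of 1.70 and 3.11 in experiments 2 and 3 (mean 2.41, n = 2, adjusted p = 0.045), differed from RPS0A by 0.57, with an interval of −1.02 to 2.16. The call of RPS0B was lost at the margin (adjusted p = 0.051) when the spread was estimated without experiment 1, in which it has no value. RPS30B (YOR182C) scored 1.49, 1.73 and 3.18 (2.13 ± 0.92, adjusted p = 0.0014). RPS30A exceeded it by 0.56, 1.38 and 0.24 on the 3 arrays, a difference of 0.73 ± 0.25 (SE, adjusted p = 0.04) that lost its call without experiment 1 or 2 (adjusted p = 0.075 and 0.23). The intervals of RPS18, RPS19 and RPS0 are wide and leave room for differences of more than 1 on the log2 scale. Differences were also not called in RPS1 and RPS7.

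Growth scores describe the same mutants without SeMet. The untreated culture is the denominator of the SeMet scores and the numerator here. Whether it was the same culture is not given. In so far as it was, an error in it would move the scores in opposite directions, and their relation is given only as values side by side. Of 43 RPS mutants scored in growth, 19 (44.2%) were called lower and 2 higher, where 12.7% of all mutants were called lower and 14.2% higher. Their median was −1.05 against 0.08 over all mutants, and 10 were below −1.5, as were 249 of all 4628. Without growth experiment 1, 2 or 3, 10 of 33, 14 of 33 and 14 of 43 RPS mutants were called lower. Over all mutants these were 280 of 4337, 327 of 4344 and 428 of 4613. In the same runs 1, 0 and 2 RPS mutants were called higher, as were 201, 242 and 401 of all mutants. In the large subunit 19 of 65 were called lower and 1 higher, with a median of −0.72.

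The lowest growth mean was that of RPS9B, which scored −3.18, −1.59 and −2.61 (−2.46 ± 0.80, adjusted p = 0.0037, limma). RPS9A in contrast had −0.12, −0.16 and −0.34 (adjusted p = 0.29), and the pair differed by 2.25 ± 0.47 (SE, adjusted p = 0.016). RPS9B thus joined the slowest growth among the RPS mutants with a moderate 20 µM mean of 1.21 ± 0.93 (adjusted p = 0.045), a call that was lost without experiment 2 or 3 (adjusted p = 0.15 and 0.25). RPS16A scored −2.44, −1.61 and −2.79 in growth (−2.28 ± 0.60, adjusted p = 0.017, or 0.082 without experiment 1 or 3), with 2.79 at 20 µM. RPS27B (YHR021C) scored −2.94 and −1.39 (−2.16, n = 2, adjusted p = 0.035), while its partner RPS27A had 0.10, 0.12 and 0.07. The 2 probes of RPS27B gave −1.29 and −4.59 in growth experiment 1 and −1.17 and −1.61 in experiment 2. RPS0B scored −3.24 and −1.02 (−2.13, n = 2, adjusted p = 0.062, or 0.038 with scaled arrays), a gap between experiments larger than that of most mutants.

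RPS7A (YOR096W) scored −2.81 and −0.87 in growth (−1.84, n = 2, adjusted p = 0.11) and 0.84, 1.22 and 3.44 at 20 µM (1.83 ± 1.40, adjusted p = 0.069). Neither was called, but the 20 µM mean was with at least 2 probes required on an array (2.33, adjusted p = 0.044) and with arrays scaled to a common spread (1.78, adjusted p = 0.045), as was the growth mean with scaled arrays (−2.12, adjusted p = 0.049). RPS29A was even across growth experiments, at −1.85, −1.53 and −1.90 (−1.76 ± 0.20, adjusted p = 0.0049), with RPS29B at 0.25, −0.20 and 0.03. RPS14A scored −1.35, −0.80 and −1.29 against 0.17, 0.15 and 0.15 for RPS14B. The pairs RPS29 and RPS14 differed in growth by −1.78 and −1.31 (adjusted p = 0.016 and 0.0055). With RPS9, these were the 3 pairs of 16 tested that differed in growth, where 22% of 41 pairs did. Without growth experiment 1, 2 or 3, 4 of 8, 3 of 8 and 3 of 16 RPS pairs differed. Over all pairs these were 7 of 21, 7 of 21 and 7 of 41.

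The 5 pairs in which A scored above B by the most at 20 µM had A below B in growth on every array with both values. For RPS24 the growth scores were −1.73 and −0.44 for A and 0.93, 0.92 and 0.31 for B, and for RPS23 they were −1.53, −0.75 and −0.49 for A and 0.55, 0.24 and −0.20 for B. RPS24B, with a mean of 0.72 ± 0.35, was called higher in growth (adjusted p = 0.041, limma), though not with centred arrays (adjusted p = 0.055) or without growth experiment 1 or 2 (adjusted p = 0.18 and 0.17). The RPS6 pair, by contrast, had growth scores of −1.35, −0.67 and −1.79 for A and −1.59 and −0.80 for B. Its difference in growth was 0.18 with an interval of −0.40 to 0.76, beside −1.83 at 20 µM.

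**Figure D4:**
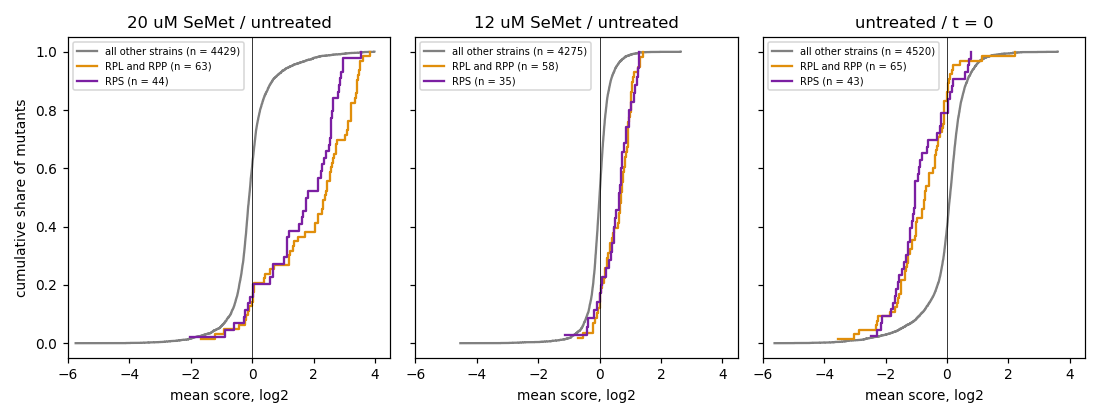
Cumulative share of mutants (y axis) by mean score (x axis, log2) for RPS mutants, RPL and RPP mutants and all other mutants, at 20 µM, at 12 µM and in growth. The RPS curve lies to the right of the other mutants at 20 µM (median 1.80) and at 12 µM (0.63), and to the left in growth (−1.05).

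At 12 µM, 35 RPS mutants had a value on both arrays. Their median was 0.63 against 0.0003 over all mutants, and 30 of the 35 means were above 0. Only RPS21A was called higher (1.29 and 1.24, mean 1.27 ± 0.04, adjusted p = 0.0077, limma) and none lower, where 0.137% of all mutants were called higher and 0.87% lower. At an unadjusted p under 0.05 there were 14 of 35, compared with 11.8% of all mutants. With either array of 12 µM left out, no RPS mutant was called higher. RPS6B and RPS16A had like means, 1.29 ± 0.44 and 1.29 ± 0.27, but were not called (adjusted p = 0.34 and 0.50). Both dose groups used an untreated culture as reference. Of the 35, 28 had a higher mean at 20 than at 12 µM, with a median difference of 0.97, and no mutant of the array was called for the difference (0%; 19 of the 35 at an unadjusted p under 0.05, compared with 12.9% of all mutants).

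The share of a mutant in the pool with SeMet relative to t = 0 was obtained by adding its 20 µM and growth means, which cancels the untreated culture in so far as it was the same. An effect of dye on a probe is not cancelled but enters the sum from both groups. It cannot be told apart from a net score, that of RPS12 included. By this net score, 9 of 42 RPS mutants (21.4%) were called higher and 3 (7.14%) lower, where 13.3% of all mutants were higher and 14.1% lower. The median was 0.72 against 0.02 over all mutants. Among the 9 were RPS0A, RPS10B, RPS12, RPS21A, RPS23A, RPS25A and RPS30A, with net scores between 1.24 for RPS10B and 2.26 for RPS25A. The 3 lower ones were RPS21B (−2.25, adjusted p = 0.0012), RPS2 (−1.10, adjusted p = 0.028) and RPS9A (−0.79, adjusted p = 0.019, limma). For most RPS mutants with a high score at 20 µM, such as RPS29A (0.85, 95% interval −0.08 to 1.79) and RPS16A (0.51, −1.21 to 2.24), the net score was not called. Without experiment 3 of 20 µM, 1 RPS mutant was called lower by the net score, as were 508 of all 4445. Leaving out 1 array of 20 µM or growth gave 6 to 8 higher and 1 to 3 lower, of 33 to 42. Over all mutants these were 366 to 529 and 448 to 540, of 4308 to 4504.

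RPS25A was singled out after its values were seen, because it was above 1.5 at 20 µM without a negative growth mean. RPS25A (YGR027C), for a head protein needed by certain internal ribosome entry sites, scored 1.69, 1.73 and 3.31 at 20 µM (2.24 ± 0.92, adjusted p = 0.00095, limma). At 12 µM it scored 0.26 and 0.18 and in growth 0.18, −0.02 and −0.11 (0.02 ± 0.14, adjusted p = 0.97). Its net score was 2.26 (adjusted p = 0.0059), and the mutants of the nearby YGR026W and YGR025W scored 0.22 and 0.95 at 20 µM (adjusted p = 0.59 and 0.0037).

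For the 32 RPS mutants with several probes on an array of 20 µM, the median range between probes was 0.39, and it exceeded 1 in 14 of 84 cases. A wide range was that of RPS7B (YNL096C), with probes at 1.52 and −0.37 in experiment 1. The second of these had no value in the other experiments of 20 µM. RPS7B scored 0.57, 1.08 and 1.47 (1.04 ± 0.45, adjusted p = 0.007, limma). Values came from 1 probe for 13 RPS mutants and from at least 2 for 33. The median SD between experiments was 0.67, 0.29 and 0.35 for RPS mutants at 20 µM, at 12 µM and in growth, and 0.25, 0.16 and 0.23 over all mutants.

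RPS mutants with no value in growth experiment 3 had lower scores in growth experiment 1. The 12 RPS mutants with a value in growth experiment 1 but none in experiment 3 had a median of −1.84 in experiment 1, with a range of −3.24 to −0.78. The 33 with a value in both had a median of −1.13 in experiment 1, with a range of −3.18 to 1.71. This difference was not tested.

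When the proteins were divided by their place in the subunit, from its known structure and after the values had been seen, 15 mutants of head proteins had a median of 2.27 at 20 µM and 29 of body and platform proteins had a median of 1.64. Of the head group 13 were called higher and 0 lower by limma, with 14 at an unadjusted p under 0.05. Of the other group 19 were called higher and 3 lower, with 25 at an unadjusted p under 0.05. Over all mutants 12.5% were called higher and 13.8% lower, and 38.9% were at an unadjusted p under 0.05. The growth medians were −0.997 and −1.06. These are descriptions of overlapping groups, since head values ran from 0.02 to 2.88 and the others from −2.01 to 3.56.

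Factors that build, bind or modify the small subunit were looked at as lists, and the shares over all mutants to read their counts against are again 12.5% called higher, 13.8% called lower and 38.9% at an unadjusted p under 0.05. Of 34 assembly factors and chaperones, 26 were scored at 20 µM, with 6 called higher and 0 lower by limma (9 at an unadjusted p under 0.05) and a median of 0.15. The 6 were LTV1, TSR2, FYV7, BUD21, SLX9 and TSR3, with means of 2.22, 1.99, 3.10, 2.90, 2.66 and 1.12. Tsr2 is the chaperone of Rps26, and the mutant of RPS26B scored 1.30, 0.87 and 1.18 (1.12 ± 0.22, adjusted p = 0.00093). Ltv1 is an export and assembly factor of the precursor of the subunit. Of 14 other proteins that bind the subunit, 11 were scored and 2 were higher, STM1 (2.56) and HCR1 (1.74, n = 2), with a median of 0.14 and 3 at an unadjusted p under 0.05. Stm1 occupies the mRNA channel of idle ribosomes, and Hcr1 is a loosely bound subunit of an initiation factor.

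Of 9 enzymes that modify small subunit proteins, 4 were scored and none was called by limma (2 at an unadjusted p under 0.05). Of 12 regulators of the transcription of ribosomal protein genes, 10 were scored, with 0 higher, 3 lower (TOD6 −1.36, DOT6 −0.75 and RIM15 −0.38), 4 at an unadjusted p under 0.05 and a median of −0.04. Tod6 and Dot6 repress genes of ribosome production. The assembly factors and the other binding proteins thus had medians near that of all mutants, while single members scored as high as the RPS mutants. In the paper the DAmP mutants were of essential genes, so a list can hold weakened genes beside deleted ones. The kind of mutant was not separated, and a median near 0 does not show that loss of these factors has no effect.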

How the data were processed

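Barcodes of pooled mutants were compared on 8 custom Agilent slides. For each probe the authors deposited a log2 ratio, obtained with GenePix Pro and normalized in R by a method not given in the sources used here. These were used as they stand. Of 15744 probes, 13084 carried 1 gene symbol and 2660 none, and the latter were left out. The RPS names had 131 probes, 88 with a value, which were averaged per array. Signal over background is not part of these values, and the number of arrays limits the precision.

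The test was limma's (version 3.58.1 under R 4.3.3, functions lmFit and eBayes), two-sided, in 1 fit of the 8 arrays with a mean for each of the 3 groups. Benjamini-Hochberg adjustment ran over all mutants with at least 2 values in each group concerned. All adjusted p-values are from limma. Paralogue differences were fitted over all pairs of symbols made of 3 letters, a number and A or B. In simulated data of 4209 strains at 20 µM, all 100 strains shifted by 1 and all 100 shifted by 2 were called, with 27 false calls. Every simulated strain had the median SD of complete strains in its group and no missing value. RPS mutants varied more at 20 µM (median SD 0.67 against 0.25 over all mutants). How often a shift of an RPS mutant is called can therefore not be read from this simulation. The labels call the arrays biological replicates. Whether arrays share an untreated culture is not given, and experiment numbers were not used to pair them. Members and lists were chosen with earlier results of these data known, so counts of ribosomal mutants are no independent evidence. Named were the 8 highest and 6 lowest RPS means at 20 µM, all called lower there, the 6 lowest in growth, the single-copy genes, the 6 pairs with the largest and 4 with the smallest difference at 20 µM, and the 2 with the widest spread between probes, apart from genes not reported here. RPS25A, RPS26B and other RPS names, factors of the lists and neighbours were added after their values were seen. Python 3.11.15, pandas 2.3.3, numpy 2.4.6 and matplotlib 3.10.9 were used. Gene names were checked against the RefSeq annotation. Some RPS genes are counted in the totals and are not reported here by name or in the plots of single mutants and pairs.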

Additional observations from a re-analysis of the deposited data

Results flagged for a closer look

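Averaged over its probes, RPS8A (YBL072C) had scores of opposite sign at the 2 concentrations on every array. It scored 0.58, 0.47 and 0.70 at 20 µM, with a mean of 0.59 (0.5852), and −0.12 and −0.66 at 12 µM, with a mean of −0.39 (−0.3892). At 12 µM the sign differed between probes, which gave 0.02, −0.46 and 0.08 in experiment 1. In experiment 2 they gave −0.20, 0.01, −1.48 and −0.96. At 20 µM all probes were above 0 (lowest 0.29). The difference between the 2 means, 0.97, was not called by limma (adjusted p = 0.13), and the opposite signs alone do not test it. In growth RPS8A was called lower (−0.83 ± 0.31, n = 3, adjusted p = 0.0079).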

How the results depend on the processing

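Counts of RPS mutants called higher at 20 µM fell from 32 of 44 when any 1 of the 3 arrays was left out. Without experiment 1, 2 or 3 they were 25 of 44, 25 of 42 and 25 of 42. Lower calls stayed between 2 and 3. Over all mutants the higher calls then ran from 371 to 476 and the lower calls from 364 to 495. The median at 20 µM was positive under every alternative run, from 1.22 to 2.24, and that in growth was negative, from −1.17 to −0.81. No called result changed direction. Of the named values that were not called, the RPS2 mean at 20 µM (−0.06) became 0.03 with centred arrays, 0.05 with scaled arrays, 0.09 without experiment 3 and 0.20 without sparse probes. RPS15 (0.02) became −0.24 and −0.03 without experiment 2 or 3, RPS24B (−0.14) became 0.05 without experiment 2, and the RPS18 difference (−0.03) became 0.26 and 0.67 without experiment 1 or 2. In growth, RPS29B (0.03) became −0.06 with centred or scaled arrays and −0.09 without experiment 1, and RPS21B (−0.24) became 0.02 with at least 2 probes or without experiment 3. With limits of 1 and 2 in place of 1.5, 32 and 21 RPS mutants were above the limit, as were 364 and 155 of all 4536. The causes of the shifts below were not tested, apart from the number of mutants tested where it is given.

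Requiring at least 2 probes on an array gave 19 of 28 higher at 20 µM (468 of 3535 over all mutants) and 11 of 25 lower in growth (432 of 3601). At 12 µM it gave 0 of 19 higher and 1 lower (8 and 31 of 3212). It gave 1 higher at 20 than at 12 µM (1 of 3200) and 1 lower by the net score (481 of 3466). Paralogue differences were called in 5 of 7, 0 of 3 and 1 of 3 pairs at 20 µM, at 12 µM and between the doses. Over all pairs these were 12 of 22, 0 of 11 and 3 of 11. With only the arrays of the groups compared, 27 were higher and 1 lower at 20 µM (407 and 420 of 4536 over all mutants). At 12 µM 9 were higher and 1 lower (81 and 79 of 4368). In this setting 5, 8 and 0 pairs differed at 12 µM, in growth and between the doses. Over all pairs these were 11 of 30, 18 of 41 and 0 of 30. Scaling the arrays of a group to a common spread gave 2 higher at 12 µM (8 of 4368 over all mutants) and 1 higher in growth (508 of 4628). It also gave 10 higher at 20 than at 12 µM (111 of 4364) and 16 higher by the net score (676 of 4515). With it 7 pairs differed in growth (18 of 41 over all pairs). Centring gave 1 higher in growth (441 of 4628 over all mutants), and the median of probes gave 6 pairs in growth (14 of 41 over all pairs). Robust eBayes gave 1 higher at 20 than at 12 µM (1 of 4364 over all mutants). Leaving out probes with fewer than 2 arrays of a group also gave 1 (1 of 4355), and estimating the spread over the tested strains alone gave 3 (7 of 4364). These last 2 alternatives were chosen after seeing the data. With the arrays of 20 µM alone, the calls of RPS9B, RPS19B and the RPS30 difference were also lost (adjusted p = 0.087, 0.078 and 0.16, limma).

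Without experiment 1, 2 or 3 of 20 µM, 4, 0 and 3 of 35 were higher at 20 than at 12 µM. Over all mutants these were 28 of 4353, 0 of 4323 and 13 of 4330. In these runs 3, 1 and 2 of 10 pairs changed between the doses, as did 7, 3 and 5 of all 30. Leaving out an array of 12 µM leaves 1, assumed to vary like the other groups.

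The arrays share only an experiment number, and correlations of same-numbered deviations lay between −0.27 and 0.16. With the replicate block, 31 of 41 RPS mutants were higher at 20 µM (525 of 4496 over all mutants) and 2 at 12 µM (7 of 4368). By the net score 16 were higher (570 of 4493), and 19 were lower in growth (463 of 4497). With it 11, 3 and 7 pairs differed at 20 µM, at 12 µM and in growth. Over all pairs these were 22 of 35, 7 of 30 and 15 of 35. The block called RPS7A (adjusted p = 0.011) and RPS18A (adjusted p = 0.0012) at 20 µM and RPS15 in growth (adjusted p = 0.03, limma), and turned the uncalled growth mean of RPS18A from −0.96 to 0.34.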
